A study of Xenopus laevis with 12 samples.

Results

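The gene arnt encodes the aryl hydrocarbon receptor nuclear translocator, and ahr encodes the receptor itself. All rows of the deposited table whose base symbol was arnt, ahr or arnt2 were taken. They numbered 4 of 18892: arnt.L, arnt.S, ahr.L and ahr.S. No row matched arnt2, which is not analysed here. The suffixes L and S name the homeologs, the gene copies kept from the long and short subgenomes after the genome duplication of Xenopus laevis. All 4 rows passed the filter on low counts, which left 18791 genes.

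ARNT is a transcription factor of the basic helix-loop-helix PAS family that works in pairs. With the aryl hydrocarbon receptor, which is bound by planar aromatic ligands and moves from a chaperone complex in the cytosol to the nucleus, it forms the activator of genes of xenobiotic metabolism such as cyp1a1. With the oxygen-regulated subunits HIF1A or EPAS1 it forms the hypoxia-inducible factors, for which it is also called HIF1-beta, and these act on genes of glycolysis and blood vessel growth. Indirubins and several flavonoids are known to bind the receptor in mammals; BIO is an indirubin derivative, and genistein is an isoflavone.

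Whole embryos were profiled at stage 9.5, the onset of gastrulation, by strand-specific poly-A RNA sequencing. The groups were control, genistein (a soy isoflavone known to inhibit tyrosine kinases), BIO and Chiron, with 3 libraries each. BIO is a brominated indirubin oxime and Chiron (also known as laduviglusib) an aminopyrimidine, and both inhibit the kinase GSK3 and so activate Wnt signalling. Each library held RNA from 3 pooled embryos, and genistein was added at the 4-cell stage. The sources used here state no dose, no vehicle and no start of the BIO and Chiron treatments, so differences between compounds are differences at unknown doses.

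Library totals ran from 11091927 to 15486533 counts, so that 0 counts allow up to 0.185 to 0.288 TMM-scaled CPM (library-size-normalised counts; the limit covers counting error only). Mitochondrially encoded transcripts took 13.5%, 14.1% and 8.37% of the counts in control 1, genistein 1 and genistein 3, and 0.553% to 4.23% in the other 9 libraries. Results are therefore also given without those 3 libraries, which leaves genistein 2 as the single genistein library, with its spread taken from the other groups. Of 16 symbols of genes active at this stage 11 had rows, and their summed level was 2219 to 3084 CPM. Single rows differed widely, from 563 to 785 CPM for pou5f3.3.L down to 0.359 to 1.17 CPM for tbxt.S. Low levels were also seen for gsc.L, at 0.0645 to 2.48 CPM, and chrd.1.L, at 0 to 10.5 CPM. Of 14 symbols for later tissues 1 had a row, tnnt3.L, at 0.538 to 2.37 CPM. The labels do not tie replicates to separate clutches; the p-values measure only how these samples spread, and that spread may be technical.

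Transcripts of both arnt copies were lower in genistein embryos than in control embryos. Counts of arnt.S were 243, 370 and 277 in control 1 to 3 and 126, 134 and 115 in genistein 1 to 3. Scaled, these were 19.8, 23.9 and 19.7 CPM in control and 11.3, 11.1 and 11.0 CPM in genistein. The 3 genistein libraries lay closely together and well under the lowest control library. The group means were 21.1 ± 2.37 CPM in control and 11.1 ± 0.143 CPM in genistein (SD, n = 3 each). The level of arnt.S fell by 0.92 ± 0.14 on the log2 scale (SE), 1.90-fold, with an edgeR quasi-likelihood adjusted p of 0.00702 and a 95% interval of -1.23 to -0.62.

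The L copy moved the same way. Counts of arnt.L were 253, 341 and 290 in control and 140, 137 and 145 in genistein. These came to 20.6, 22.0 and 20.6 CPM in control and 12.6, 11.3 and 13.9 CPM in genistein. Again the groups did not overlap. The means were 21.1 ± 0.788 CPM in control and 12.6 ± 1.31 CPM in genistein (SD, n = 3 each). The level of arnt.L fell by 0.74 ± 0.15 on the log2 scale (SE), 1.67-fold, with an edgeR adjusted p of 0.0254 and a 95% interval of -1.08 to -0.40. In whole embryos, fewer cells that express a gene and less RNA of it per cell cannot be told apart.

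Both arnt rows thus passed the test as lower in genistein, where 3.00% of all genes tested did and 0.362% passed as higher. Both also had no overlap between genistein and control libraries, as 9.67% of all genes did in that direction. Among 5203 homeolog pairs with both copies tested, both were called lower in 61, or 1.17%, and at least 1 in 320, or 6.15%. In both copies all 3 genistein libraries lay below all 9 others, as they did for 1084 genes, or 5.77%. With the L and S counts summed, arnt stood at 42.2 ± 3.16 CPM in control and 23.7 ± 1.31 CPM in genistein (SD, n = 3 each). The summed level fell by 0.85 ± 0.12 (log2 ± SE, edgeR adjusted p = 0.00657 over 13586 summed genes).

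**Figure D1:**
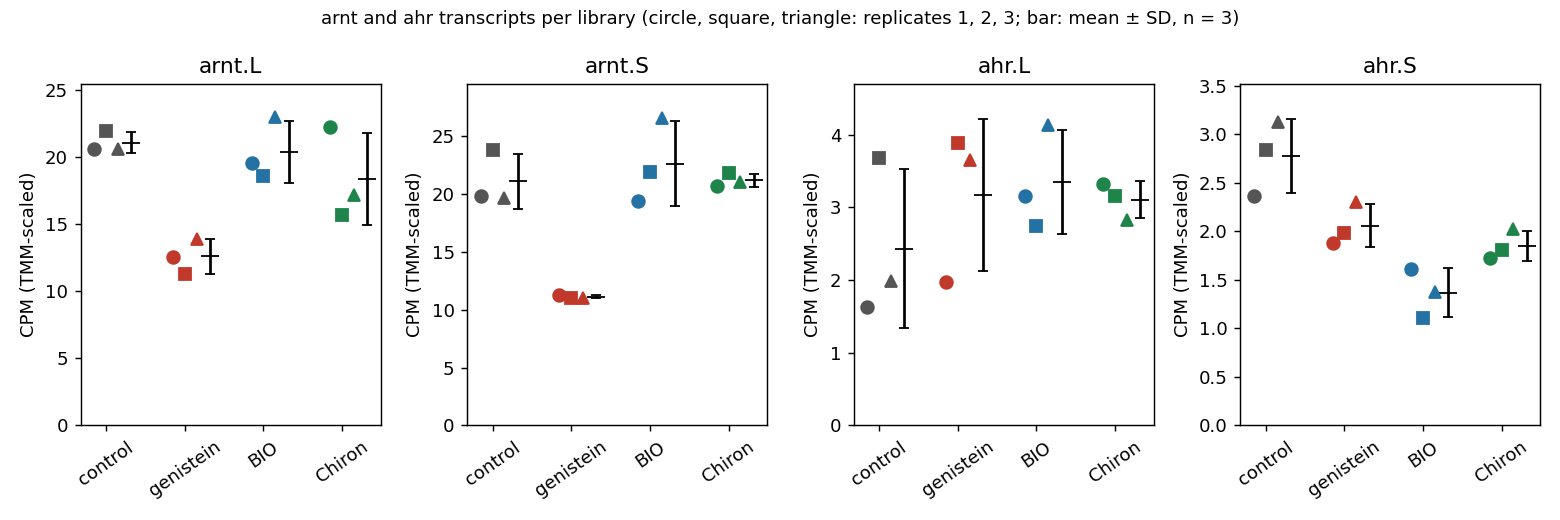
TMM-scaled CPM of arnt.L, arnt.S, ahr.L and ahr.S (y axes, each from 0) in the 12 libraries, grouped by treatment (x axis); symbols are the replicates and the bars the mean ± SD of 3. Both arnt panels show the 3 genistein libraries below all others, and the ahr.S panel shows the 3 control libraries above all others, the nearest pair at 2.37 and 2.31 CPM.

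Summed arnt was lower in genistein than in control libraries at low and at high mitochondrial share. In genistein 2, the single genistein library of low share (1.46% mitochondrial counts), it stood at 22.4 CPM. In control 2 and control 3, with 0.946% and 4.23%, summed arnt stood at 45.8 and 40.3 CPM. The pair with the highest shares, genistein 1 and control 1, stood at 23.9 and 40.5 CPM. Without the 3 libraries of high share, with genistein 2 as the single genistein library, the log2 values against control were -0.92 for arnt.L and -0.99 for arnt.S. With the mitochondrial share as a covariate they were -0.75 and -0.91 (edgeR adjusted p = 0.00283 and 3.97e-04). That fit called 4502 genes of the whole table in genistein against control, beside 632 without the covariate.

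**Figure D2:**
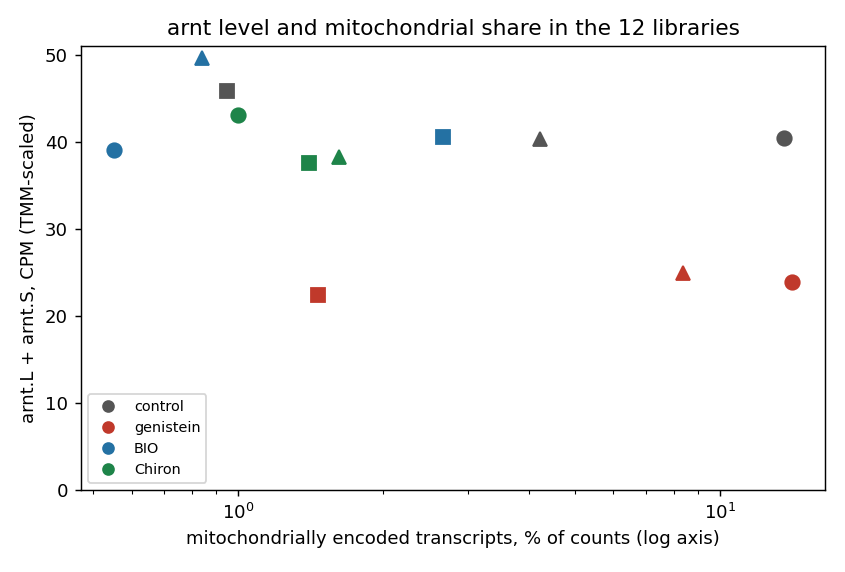
Summed CPM of arnt.L and arnt.S (y axis, from 0) against the share of mitochondrially encoded transcripts (x axis, log scale) in the 12 libraries, coloured by group, with circle, square and triangle for replicates 1 to 3. The genistein libraries sit between 22.4 and 25.0 CPM at shares from 1.46% to 14.1%, and the other 9 between 37.6 and 49.6 CPM.

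The calls in genistein against control rested on a spread shared by all 4 groups. Fitted on the 6 libraries of these groups alone, arnt.L stood at -0.75 and arnt.S at -0.93, and neither passed (edgeR adjusted p = 0.225 and 0.176; 1 gene of the whole table was called). Leaving out each library in turn, arnt.S passed in 12 of 12 fits and arnt.L in 8. The call of arnt.L was lost without control 2, control 3, genistein 1 or genistein 3 (edgeR adjusted p = 0.0956, 0.0802, 0.0766 and 0.0649).

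In BIO and Chiron embryos the arnt copies did not pass against control. The BIO libraries held 276, 337 and 386 counts of arnt.S and the Chiron libraries 337, 339 and 312. As levels these were 19.4, 22.0 and 26.6 CPM for BIO and 20.7, 21.9 and 21.0 CPM for Chiron. Both groups overlapped control. The differences from control were 0.10 for BIO (95% interval -0.19 to 0.39) and 0.01 for Chiron (-0.29 to 0.30) on the log2 scale, neither past the test (edgeR adjusted p = 0.767 and 0.988). Shifts inside these intervals remain possible, and the test over all genes can also miss larger ones.

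For arnt.L the BIO libraries held 279, 286 and 334 counts, which scaled to 19.6, 18.6 and 23.0 CPM. The Chiron libraries held 362, 244 and 255, which scaled to 22.3, 15.7 and 17.2 CPM. Chiron 2 and Chiron 3 lay below every control library and Chiron 1 above them all, so that the copy varied most in this group (18.4 ± 3.44 CPM, SD, n = 3). The differences from control were -0.05 for BIO (95% interval -0.38 to 0.29) and -0.20 for Chiron (-0.53 to 0.14), neither past the test (edgeR adjusted p = 0.905 and 0.65). BIO against control called 0.0266% of all genes. Chiron against control called 0% by edgeR, where 1131 genes had an unadjusted p under 0.05 and DESeq2 called 55.

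Set against the GSK3 inhibitors, genistein embryos again had less arnt. The S copy stood 1.02 ± 0.14 lower than in BIO and 0.93 ± 0.14 lower than in Chiron (log2 ± SE, edgeR adjusted p = 0.00644 and 0.00788). The L copy differed by -0.70 ± 0.15 from BIO and passed (edgeR adjusted p = 0.0378). Its difference from Chiron, -0.55 ± 0.15 (95% interval -0.89 to -0.21), did not pass over all genes (edgeR adjusted p = 0.075), although the libraries did not overlap. Of all genes 2.94% were called lower in genistein than in BIO (0.692% higher) and 2.17% lower than in Chiron (0.181% higher), and 14.4% and 16.4% had all genistein libraries below all of the other group. These comparisons share the genistein libraries with that against control and are not independent of it. Without the 3 libraries of high mitochondrial share arnt.L stood at -0.85 against BIO and no longer passed (edgeR adjusted p = 0.0503). Its call against BIO was also lost in 7 of 12 fits without 1 library (without control 3, genistein 1, genistein 3, any BIO library or Chiron 3), with edgeR adjusted p up to 0.167. Against Chiron arnt.L passed without control 1 or without genistein 2 (edgeR adjusted p = 0.045 and 0.0437). With only the 6 libraries of each comparison, arnt.S stood at -1.02 against BIO and -0.93 against Chiron, and arnt.L at -0.70 against BIO, none past the test (edgeR adjusted p = 0.111, 0.0579 and 0.151).

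Between BIO and Chiron no member passed. The differences were 0.15 for arnt.L (95% interval -0.18 to 0.48) and 0.09 for arnt.S (-0.20 to 0.39) on the log2 scale by edgeR. By edgeR 0% of all genes were called in this comparison, with 217 at an unadjusted p under 0.05 and 2 called by DESeq2. Ordered by mean, arnt.L ran from control (21.1 CPM) through BIO (20.4) and Chiron (18.4) to genistein (12.6). For arnt.S the order was BIO (22.6), Chiron (21.2), control (21.1) and genistein (11.1). The 3 highest groups of each order were not told apart by the test over all genes.

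**Figure D3:**
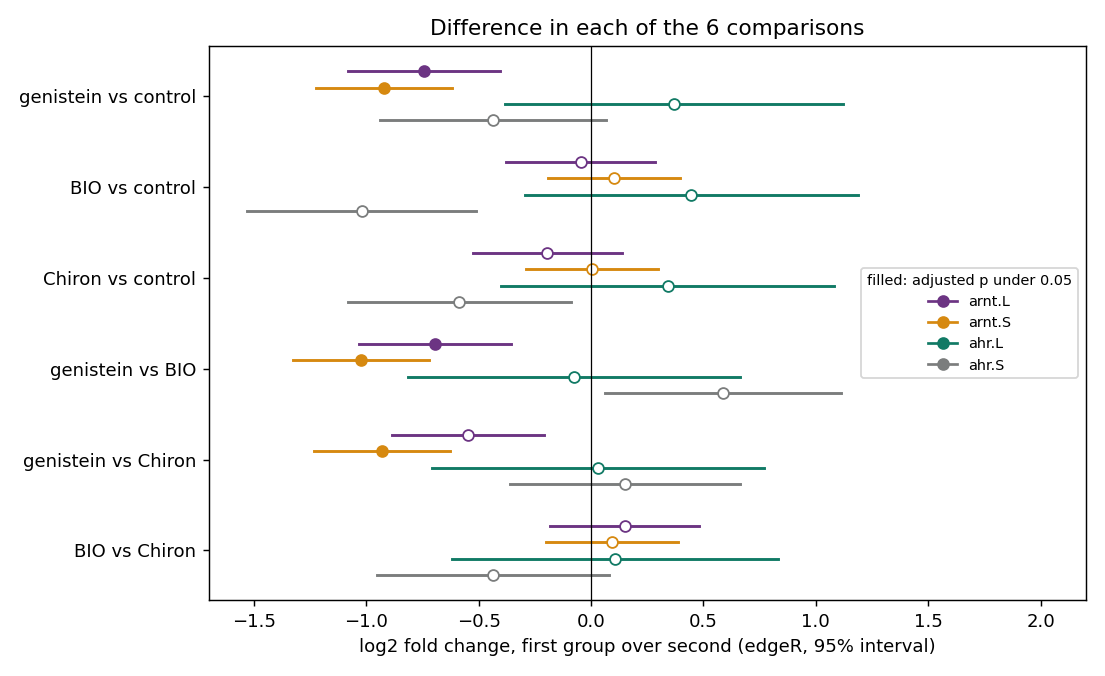
Fitted log2 fold changes (x axis, first group over second, edgeR) with 95% intervals of the 4 members in the 6 comparisons (y axis); filled points passed at an adjusted p under 0.05. The filled points are arnt.L and arnt.S against control and BIO and arnt.S against Chiron, all in genistein and all negative, from -1.02 to -0.70.

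Both arnt copies gave nearly equal numbers of counts. Their lengths in the authors' annotation were not known, so the share of counts is not a ratio of molecules. The L copy took 51.0%, 48.0% and 51.1% of the arnt counts in control and 52.6%, 50.6% and 55.8% in genistein. In BIO it took 50.3%, 45.9% and 46.4%, and in Chiron 51.8%, 41.9% and 45.0%. The groups overlapped, except genistein and BIO, whose nearest libraries stood at 50.6% and 50.3%. Over the 4 groups the log2 ratio of L to S was not told apart by an exact permutation test over all 369600 assignments of the libraries (p = 0.122, and 0.122 adjusted over 2 such tests). Without Chiron 1 the same exact test gave p = 0.00922. Across the 12 libraries the log2 CPM of both copies had a Pearson correlation of 0.87, a value that rests on the shared libraries and on the genistein group.

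The receptor gene ahr was measured at a much lower count than arnt. Control libraries held 29, 44 and 44 counts of ahr.S and genistein libraries 21, 24 and 24. BIO libraries held 23, 17 and 20 and Chiron libraries 28, 28 and 30. These were 2.37, 2.84 and 3.12 CPM in control and 1.88, 1.98 and 2.31 CPM in genistein. They were 1.62, 1.11 and 1.38 CPM in BIO and 1.72, 1.81 and 2.02 CPM in Chiron. The lowest values were those of BIO, and all 9 treated libraries lay below all 3 controls, as they did for 261 genes, or 1.39%, a pattern in which the 3 treated groups share the same controls. In each comparison alone, such a lack of overlap was found for 9.67% of genes in genistein, 7.06% in BIO and 9.35% in Chiron.

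None of these differences passed the test over all genes. The largest was that of BIO, at -1.02 ± 0.23 (log2 ± SE, 95% interval -1.53 to -0.51, edgeR adjusted p = 0.318). The other values were -0.59 ± 0.23 in Chiron and -0.43 ± 0.23 in genistein (edgeR adjusted p = 0.645 and 0.299). Between genistein and BIO the ahr.S value was 0.59 ± 0.24 (edgeR adjusted p = 0.119), and between BIO and Chiron -0.44 ± 0.24 (no call). The libraries did not overlap in either, as for 11.0% and 4.80% of all genes in those directions. The libraries held 17 to 44 counts of ahr.S. At the mean count over all 12 libraries, counting error alone gives a coefficient of variation of about 19.0%. It is larger at the lower counts of BIO.

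For ahr.L the control libraries held 20, 57 and 28 counts and the genistein libraries 22, 47 and 38. The BIO libraries held 45, 42 and 60 and the Chiron libraries 54, 49 and 42. As levels the control libraries ran from 1.63 to 3.67 CPM and the genistein libraries from 1.97 to 3.88. The range was 2.74 to 4.14 CPM for BIO and 2.83 to 3.32 for Chiron. The lowest 3 libraries were control 1, genistein 1 and control 3, and all groups overlapped. The mitochondrial share was 13.5%, 14.1% and 4.23% in those libraries. In genistein 3, with a share of 8.37%, ahr.L stood at 3.65 CPM. The part of the share in the spread was not tested on its own. No comparison of ahr.L passed. Against control the values were 0.37 ± 0.34 in genistein, 0.45 ± 0.34 in BIO and 0.34 ± 0.34 in Chiron (log2 ± SE, edgeR adjusted p = 0.564, 0.688 and 0.686). With the mitochondrial share as a covariate they were 0.53, 0.12 and 0.02 (edgeR adjusted p = 0.161, 0.939 and 0.994).

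The balance of the ahr copies varied between groups. The L copy took 40.8%, 56.4% and 38.9% of the ahr counts in control and 51.2%, 66.2% and 61.3% in genistein. In BIO it took 66.2%, 71.2% and 75.0%, and in Chiron 65.9%, 63.6% and 58.3%. The control libraries had the lowest shares except control 2, which stood above genistein 1. Every BIO and Chiron library stood above all controls. The log2 ratio of L to S differed over the 4 groups in an exact permutation test (p = 0.0166, adjusted over 2 such tests 0.0331), chosen after the values were seen. Without the 3 libraries of high mitochondrial share the exact p was 0.0556. With ahr.L and ahr.S summed, no comparison passed, and the value in genistein against control was -0.02 (95% interval -0.55 to 0.51, edgeR adjusted p = 0.975).

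**Figure D4:**
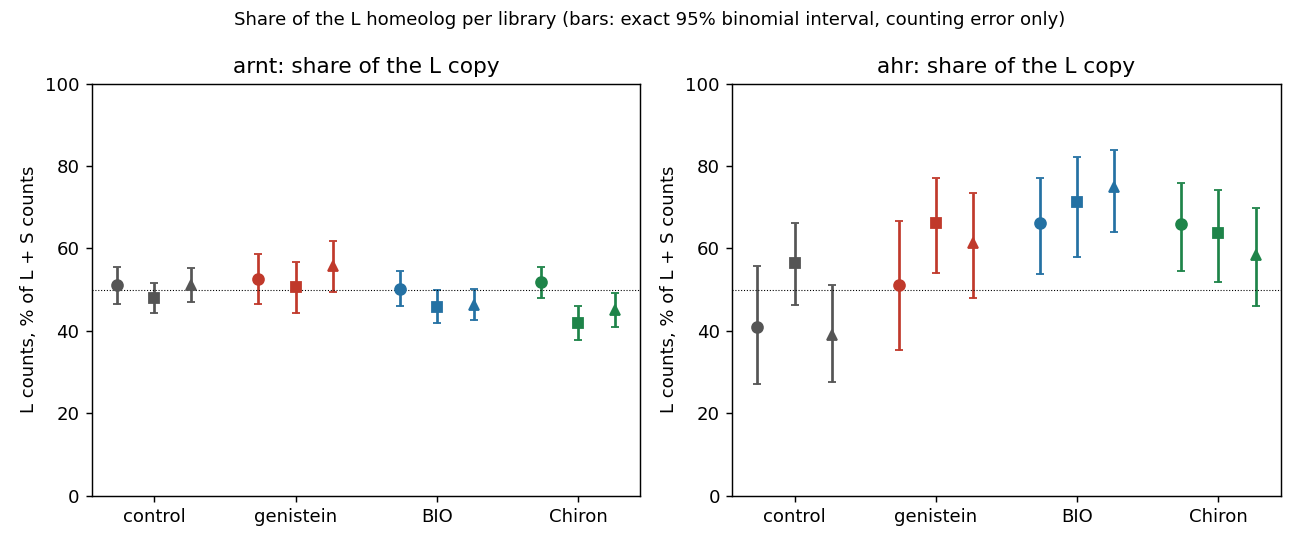
Share of the L copy in the counts of arnt (left) and ahr (right), in percent of L plus S counts (y axis), for each library grouped by treatment (x axis); bars are exact 95% binomial intervals and cover counting error only. The arnt shares lie between 41.9% and 55.8%, and the ahr shares run from 38.9% in control 3 to 75.0% in BIO 3.

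Other genes of the bHLH-PAS family encode further partners of ARNT and related factors. Of 19 further symbols the table held 15 rows. In genistein against control 1 of the 15 passed, as lower, or 6.67% beside 3.00% of all genes. This was clock.S, the S copy of the circadian factor CLOCK, at 16.9, 22.5 and 19.7 CPM in control and 10.6, 14.4 and 11.0 CPM in genistein. The groups did not overlap, as for 9.67% of all genes in that direction. The level of clock.S fell by 0.72 ± 0.17 (log2 ± SE, edgeR adjusted p = 0.0419). The call of clock.S was kept in 2 of 12 fits without 1 library (without control 1 or genistein 2; edgeR adjusted p up to 0.161 in the others) and was lost without the 3 libraries of high mitochondrial share (-0.57, edgeR adjusted p = 0.0913), under a replicate block (-0.71, edgeR adjusted p = 0.0785) and in the fit to the 6 libraries of control and genistein (-0.72, edgeR adjusted p = 0.318). Its homeolog clock.L stood at -0.62 ± 0.20 in genistein against control (edgeR adjusted p = 0.111), and passed against BIO at -0.86 ± 0.20 (edgeR adjusted p = 0.0401).

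No difference passed for the HIF subunits that pair with ARNT. The oxygen-regulated subunit gene hif1a.L stood at 191 ± 34.8 CPM in control and 196 ± 74.0 CPM in genistein, and hif1a.S at 20.8 ± 6.70 and 22.3 ± 7.50 CPM (SD, n = 3 each). Its relative epas1.L stood at 28.8 ± 6.28 and 26.5 ± 12.4 CPM. For BMAL1, the partner of CLOCK and a relative of ARNT, bmal1.S was at 50.9 ± 5.93 and 51.9 ± 7.66 CPM and bmal1.L at 3.31 ± 1.11 and 3.91 ± 1.48 CPM. None of these passed, and each overlapped between the groups. The genistein libraries 1 to 3 of hif1a.L stood at 142, 280 and 165 CPM, and the controls at 155, 224 and 193. Genistein 2, of low mitochondrial share, was thus above every control, and genistein 1, of high share, below every control. The part of the share in this spread was not tested. The p160 coactivator genes, whose proteins carry the same domains, did not pass either: ncoa2.S had the lowest value, -0.80 ± 0.23 (edgeR adjusted p = 0.0793), and the other 5 ncoa genes lay between -0.37 and 0.01 on the log2 scale. The neural factor gene npas3.S stood at 3.52 ± 1.61 and 2.01 ± 0.824 CPM, and npas3.L near the limit of 0 counts.

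The median log2 value of the 15 rows was -0.32, beside 0.03 for all genes tested, with 10 of 15 negative. With the 3 libraries of high mitochondrial share left out it was 0.13 with 5 of 15 negative, in a fit where genistein 2 is the single genistein library. With that share as a covariate it was -0.18 with 9 of 15 negative. With library totals as the only scaling it was -0.43, where the median of all genes was -0.09.

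In the cytosol the receptor is held by HSP90 with the cochaperone p23, encoded by ptges3. The list kept for this complex had 8 rows, among them src.L, src.S, cul4b.L and cul4b.S, which are neither HSP90 nor p23 genes. None of the 8 passed in genistein against control by edgeR, and 0 were called by DESeq2. At an unadjusted edgeR p under 0.05 were 21.1% of all genes and 3 of the 8. The median was 0.19, and the 3 were ptges3.S (0.49 ± 0.18), ptges3.L (0.31 ± 0.13) and src.S, a kinase found with the receptor complex (0.34 ± 0.13), all named after their values were seen. Values of the 8 rows ran from -0.99 to 0.49, and 2 were negative. The HSP90 gene hsp90aa1.1.L was at 1.01 ± 0.386 CPM in control and 0.516 ± 0.325 CPM in genistein (SD, n = 3 each). For hsp90ab1.S the levels were 356 ± 91.5 and 375 ± 174 CPM. Both HSP90 rows were named after their values were seen. With the mitochondrial share as a covariate 3 of the 8 were called higher.

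Target genes of the receptor did not pass in the fit to all 12 libraries. Of 12 listed symbols 5 rows were measured, and 0 passed in genistein against control by edgeR or by DESeq2. Beside 21.1% of all genes, 1 of the 5 had an unadjusted edgeR p under 0.05. That gene was cyp1a1.S, the cytochrome P450 used as the classical readout of the receptor, chosen here after its value was seen. Its level was 32.4 ± 2.51 CPM in control and 42.7 ± 4.15 CPM in genistein (SD, n = 3 each). BIO embryos had 32.2 ± 1.51 CPM and Chiron embryos 39.5 ± 6.61 CPM. The genistein value was 0.40 ± 0.14 (log2 ± SE, edgeR adjusted p = 0.137). The quinone reductase gene nqo1.L stood at -0.56 ± 0.29 and tiparp.L, a feedback inhibitor of the receptor, at -0.43 ± 0.48. The median of the 5 was 0.06, and -0.06 with library totals only. With the mitochondrial share as a covariate 1 of the 5 was called higher, in a fit that called 4502 genes of the whole table.

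The oxygen-sensing genes that set HIF stability, which encode the prolyl hydroxylases, VHL and its ligase partners and the asparaginyl hydroxylase, gave 15 rows. None passed in genistein against control by edgeR, and 1 was called by DESeq2, which called 1710 genes of the whole table. An unadjusted edgeR p under 0.05 was found for 2 of the 15, beside 21.1% of all genes. The values of the 15 rows ran from -0.78 to 0.82 with a median of 0.15. With the mitochondrial share as a covariate 2 of the 15 were called higher.

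Some known HIF target genes fell. Of 48 rows 7 passed as lower in genistein, or 14.6%, beside 3.00% of all genes, and 0 as higher; the difference between these shares was not tested. The growth factor gene vegfa.L, which guides blood vessel growth, was at 37.9, 44.2 and 37.5 CPM in control and 23.2, 21.5 and 19.9 in genistein. The groups stood clearly apart, and vegfa.L fell by 0.89 ± 0.12 (log2 ± SE, edgeR adjusted p = 0.00436). Its homeolog vegfa.S fell by 0.85 ± 0.19 (edgeR adjusted p = 0.0323).

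The other called rows of this list encode enzymes of glycolysis. The aldolase gene aldoc.L was at 38.5, 39.4 and 37.3 CPM in control and 24.0, 17.8 and 18.7 in genistein, and fell by 0.93 ± 0.14 (edgeR adjusted p = 0.00855). The enolase gene eno1.L was at 83.6, 77.2 and 72.4 CPM in control and 44.4, 41.4 and 55.2 in genistein, and fell by 0.73 ± 0.13 (edgeR adjusted p = 0.0149). Neither showed overlap between the groups. The rows eno1.S, tpi1.L (triosephosphate isomerase) and gpi.S (glucose-6-phosphate isomerase) fell by 0.84, 1.02 and 0.45 (edgeR adjusted p = 0.0351, 0.0331 and 0.0277). These 3 and vegfa.S were named after their values were seen. For tpi1.L the controls ran from 16.6 to 23.4 CPM, BIO from 11.3 to 13.6 and Chiron from 11.5 to 14.3. For eno1.S the ranges were 66.4 to 82.2, 51.4 to 65.5 and 50.7 to 57.9 CPM. In both rows all 9 treated libraries lay below all 3 controls, as for 1.39% of all genes. The other called rows overlapped control in BIO, and all of them but eno1.L did so in Chiron.

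In the fit to all 12 libraries the list as a whole did not lie lower. Its median was -0.01, beside 0.03 for all genes, and 25 of 48 values were negative. Other settings moved this count. It was 34 of 48 without the 3 libraries of high mitochondrial share, with genistein 2 as the single genistein library. With library totals only it was 32 (median -0.14), and with the mitochondrial share as a covariate 23. Positive values that did not pass included jmjd6.S, a hydroxylase gene (0.49 ± 0.13, edgeR adjusted p = 0.06), and bnip3.S, a mitophagy receptor gene (0.75 ± 0.34), both named after their values were seen. The homeologs of 2 called genes did not pass: gpi.L stood at 0.22 and tpi1.S at -0.21. With homeologs summed, 3 genes of the list were called lower. Without any 1 library 2 to 9 were called lower (2 without control 2, 3 without control 3, Chiron 2 or Chiron 3, and 4 without genistein 1, genistein 3, BIO 1 or BIO 3). Called higher were 6 without genistein 2 (beside 9 lower, where 4757 genes of the whole table were called), 1 without control 1 and 0 in the other fits. Across these 12 fits vegfa.L and aldoc.L always passed, eno1.L passed in 10 (not without control 2 or genistein 1), gpi.S in 5, vegfa.S in 4, and tpi1.L and eno1.S in 3 each. Without the 3 libraries of high mitochondrial share 11 were called lower and 1 higher, where the median was -0.29 and 1309 genes of the whole table were called. With that share as a covariate 14 were called lower and 5 higher, where the median was 0.02 and 4502 of all 18791 genes were called. Fitted on the 6 libraries of control and genistein alone 0 were called.

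In BIO and in Chiron against control 0 of the 48 HIF target rows passed by edgeR, and 0 were called by DESeq2 in either. An unadjusted edgeR p under 0.05 was found for 5 and 9 of the 48, larger shares than the 5.86% and 6.02% of all genes. The list medians were -0.03 in BIO and -0.10 in Chiron, beside 0.01 and 0.02 for all genes. Negative values numbered 28 and 33 of the 48. Genistein stood lower than BIO for 4 of the 48, or 8.33% beside 2.94% of all genes. It stood higher for 1 (jmjd6.S), or 2.08% beside 0.692%. Compared with Chiron, 3 were lower, or 6.25% beside 2.17% of all genes, and 0 higher, beside 0.181%. The differences between these shares were not tested. The rows vegfa.L, aldoc.L and gpi.S passed as lower in genistein in all 3 comparisons, which share the genistein libraries.

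Of 15 rows for circadian genes that act with CLOCK and BMAL1, 2 fell in genistein against control and 0 rose, or 13.3% beside 3.00%. The period gene per3.L was at 120, 190 and 156 CPM in control and 57.3, 82.2 and 55.2 in genistein. It fell by 1.26 ± 0.20 (log2 ± SE, edgeR adjusted p = 0.00978). The cryptochrome gene cry2.L, which encodes a repressor of CLOCK and BMAL1, was at 40.3, 41.3 and 40.8 CPM in control and 29.9, 21.2 and 27.8 in genistein. It fell by 0.63 ± 0.13 (edgeR adjusted p = 0.0247). In BIO cry2.L was at 35.6, 32.8 and 32.2 CPM, and in Chiron at 37.1, 31.8 and 33.3. All 9 treated libraries thus lay below all 3 controls, as for 1.39% of all genes. Levels of per3.L overlapped control, at 131 to 179 CPM in BIO and 141 to 162 in Chiron. In BIO and in Chiron against control 0 of the 15 passed. Genistein stood lower for 1 of the 15 against each, or 6.67% beside 2.94% (BIO) and 2.17% (Chiron) of all genes. For both genes all genistein libraries lay below all controls, as for 9.67% of all genes. Their homeologs, named after their values were seen, did not pass. Levels of per3.S overlapped, at 119 to 195 CPM in control and 86.6 to 143 CPM in genistein. Those of cry2.S did not, at 30.9 to 38.4 CPM and 13.7 to 24.6 CPM. The list's median was -0.41, with 13 of 15 values negative, and -0.17 with 9 of 15 negative without the 3 libraries of high mitochondrial share. Without any 1 library 0 to 6 were called lower, 0 without genistein 3, 1 without control 2 or control 3, and 6 without genistein 2. The fit without genistein 2 called 4757 genes of the whole table. The call of per3.L was lost without genistein 3 (edgeR adjusted p = 0.0515), and that of cry2.L without control 2, control 3 or genistein 3 (0.0874, 0.0851 and 0.074). Fitted on the 6 libraries alone 0 passed.

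**Figure D5:**
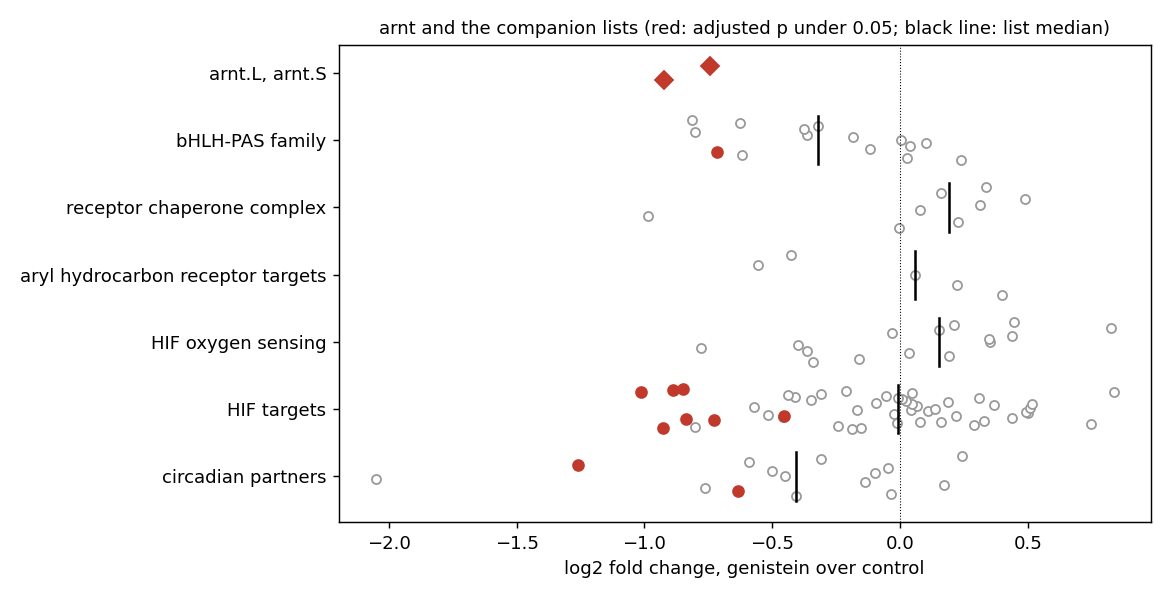
Log2 fold change of genistein over control (x axis) of arnt.L and arnt.S (diamonds) and of each measured row of the 6 companion lists (y axis), red where the adjusted p was under 0.05, with the list median as a black line. The 10 red circles are 1 bHLH-PAS row, 7 HIF target rows and 2 circadian rows, all negative, while the median of the HIF targets is -0.01.

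The genes whose level followed summed arnt most closely over the 12 libraries were taken by Pearson correlation of log2 CPM among 15459 genes with a symbol and at least 1 CPM. They were ccdc22.S (r = 0.98), a subunit of an endosomal trafficking complex, nherf1.L (0.98), a membrane scaffold protein, ruvbl1.S (0.97), a chromatin remodelling ATPase, uba2.L (0.97), a SUMO-activating enzyme, kif11.L (0.97), a mitotic kinesin, and ube2j2.L (0.97), a ubiquitin-conjugating enzyme. Since summed arnt was low in genistein, the choice itself favours genes that are low there; their values against control ran from -1.36 for kif11.L to -0.53 for ube2j2.L. The most opposite were ccdc3.L, tmem170a.S and prkag1.S (each r = -0.95). These values are a description of libraries that all genes share, and 189 genes reached 0.9.

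On one side of arnt the nearest measured genes did not pass. In the order of RefSeq genes of the Xenopus laevis v10.1 assembly, used for order only, the nearest measured protein-coding genes on one side of both copies were setdb1, a histone methyltransferase gene, and cers2, a ceramide synthase gene. In genistein against control setdb1.L stood at -0.40 ± 0.31, cers2.L at 0.17 ± 0.15, setdb1.S at -0.03 ± 0.33 and cers2.S at 0.14 ± 0.11 (log2 ± SE). None of these passed (edgeR adjusted p = 0.482, 0.561, 0.967 and 0.514). On the other side the nearest measured genes lay farther off, with 7 to 35 genes between. Of these 4, LOC121397638 on the side of arnt.S passed as lower at -1.36 ± 0.29 (edgeR adjusted p = 0.0275), at 0.537 CPM in genistein and 1.38 CPM in control, with 35 genes between; the other 3 did not pass.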

How the data were processed

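The authors deposited raw read counts per gene in 1 table, whole numbers for 12 libraries, and each column name matched a sample. STAR 2.5.2b and edgeR appear, with no role, per the submitters' processing notes. Build, annotation and counting tool are not stated in what was used here, so reads may have been split between homeologs. From these counts, R 4.3.3 with edgeR 4.0.16 was used for filterByExpr by group, TMM scaling, 1 quasi-likelihood fit to all 12 libraries and 6 contrasts, with calls at a Benjamini-Hochberg adjusted p under 0.05 over 18791 genes. CPM are TMM-scaled. The pipeline was tested on simulated data. DESeq2 1.42.0 was an alternative. Homeolog ratios (counts plus 0.5) were tested by exact permutation in Python 3.11.15, two-sided over the 4 groups; the ahr test and the summed arnt alternatives were added after values were seen.

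Members and lists were chosen with earlier results of these data known. Named beside the members were measured bHLH-PAS genes and at most 3 called genes of each other list by p. The 6 genes of highest and the 3 of most negative correlation were also named. Others are said to be named after their values were seen. No library was left out for agreeing with another within sampling noise. A gene of the receptor complex list is not reported here and was left out of its counts and median.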

Additional observations from a re-analysis of the deposited data

How the results depend on the processing

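In genistein against control arnt.S lay between -1.05 and -0.90 over 9 other settings and arnt.L between -0.92 and -0.72 (log2), 8 of 9 past the test for each. Settings that ended or made a call, turned a sign or moved a count are given here or beside the result, and their cause was not tested except where fewer libraries or genes entered the fit.

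With only the 6 libraries of a comparison, genistein gave -0.75 (arnt.L), -0.93 (arnt.S) and -0.85 (summed) against control, -0.70, -1.02 and -0.88 against BIO, and -0.93 (arnt.S) and -0.76 (summed) against Chiron, none past the test, and arnt.S in Chiron against control turned to -0.012. Genes called were then 1, 0 and 17 for genistein against control, BIO and Chiron, 0 for BIO against control and 2 for BIO against Chiron. The labels do not say whether equal replicate numbers mark paired samples. Over 18 same-numbered pairs r ran from -0.55 to 0.77, and 5 of 12 libraries correlate best with their own number. The median r was -0.0025, beside 0.023 for differently numbered pairs. Between control and genistein of the same number r was 0.68, 0.77 and -0.26 for replicates 1, 2 and 3. A replicate block gave 400, 340 and 268 called genes for genistein against control, BIO and Chiron. Under it genistein gave -0.70 for arnt.L against BIO (edgeR adjusted p = 0.0571) and -0.016 for ahr.L against Chiron. The exact p of the arnt ratio was then 0.0208, and 4 HIF targets and 0 bHLH-PAS genes were called lower in genistein against control.

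With the mitochondrial share as covariate the called genes were 4502, 1284 and 956 for genistein against control, BIO and Chiron, 269 and 195 for BIO and Chiron against control and 5 for BIO against Chiron. In that fit arnt.S in Chiron against control was -0.036 and ahr.L in genistein against BIO 0.41. With mitochondrial genes removed arnt.S in Chiron against control was -0.027, and with RLE scaling -0.014. Without control 1, genistein 1 and genistein 3 the called genes were 1309 for genistein against control, 205 and 146 for BIO and Chiron against control and 2 for BIO against Chiron. The values were then -0.85 (arnt.L) and 0.21 (ahr.L) in genistein against BIO, -0.011 (summed arnt) in BIO and -0.054 (arnt.S) in Chiron against control, and the exact p of the ahr ratio was 0.0556.

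Library totals alone gave 693 genes in genistein against Chiron, 3 and 6 in BIO and Chiron against control, 0.0011 for arnt.L in BIO against control, and -0.71 (arnt.L, past the test), -0.11 (ahr.L) and -0.0085 (ahr.S) in genistein against Chiron. That scaling moved the median of all genes in genistein against control from 0.03 to -0.09. Homeologs summed, which gives no value for a single copy, called 390, 377 and 285 genes in genistein against control, BIO and Chiron. DESeq2 called 1710, 3877 and 3931 there, 114 and 55 in BIO and Chiron against control and 2 in BIO against Chiron, with -0.51 for arnt.L in genistein against Chiron (past the test) and -0.016 for arnt.S in Chiron against control. In genistein against control it called 10 HIF targets lower and 2 higher, and 3 bHLH-PAS genes and 3 circadian genes lower. The covariate fit called 6 circadian genes lower and 1 higher, 3 bHLH-PAS genes lower, and 3 receptor complex, 1 receptor target and 2 oxygen-sensing genes higher. Without the 3 libraries of high mitochondrial share 1 receptor complex gene was called higher, and with homeologs summed 0 bHLH-PAS genes and 1 circadian gene were called lower. Without genistein 2, 2 receptor complex genes were called higher and 2 oxygen-sensing genes in each direction, with 0 in either list without any other library. Without any 1 library 0 to 6 bHLH-PAS genes were called lower, 6 without genistein 2, 3 without control 1 and 0 in the other fits.

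Without any 1 library the called genes ran from 181 to 4757 in genistein against control, 48 to 8811 against BIO and 107 to 9125 against Chiron, 0 to 28 and 0 to 14 in BIO and Chiron against control and 0 to 1 between these. For arnt.L the values were -0.82 to -0.66, -0.77 to -0.60 and -0.65 to -0.39 in genistein against control, BIO and Chiron, -0.14 to 0.016 and -0.36 to -0.094 in BIO and Chiron against control, and 0.048 to 0.31 between these. For arnt.S they were -0.97 to -0.83, -1.12 to -0.89, -0.94 to -0.90, -0.031 to 0.20, -0.043 to 0.10 and -0.037 to 0.19 in the same order. For summed arnt they were -0.89 to -0.78, -0.95 to -0.77, -0.80 to -0.68, -0.080 to 0.11, -0.15 to -0.014 and 0.0052 to 0.19, with the call lost against BIO without BIO 3 (edgeR adjusted p = 0.0518) and against Chiron without genistein 3 or Chiron 1 (0.0525 and 0.0646). For ahr.L they were 0.16 to 0.80, -0.23 to 0.17, -0.12 to 0.28, 0.23 to 0.88, 0.13 to 0.77 and -0.075 to 0.23. For ahr.S they were -0.53 to -0.34, 0.45 to 0.72, 0.064 to 0.22, -1.16 to -0.89, -0.69 to -0.49 and -0.57 to -0.30. Exact p ran from 0.00922 to 0.291 for the arnt ratio and 0.00552 to 0.0455 for the ahr ratio. At 17 to 60 counts a library, counting error limits what could be seen of ahr.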
